A study of Homo sapiens with 12 samples.

Results

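The Notch receptor and ligand genes were examined in ChIP-seq peak lists of YTHDF1, RNF2 and H2AK119ub from H1 cells. H1 is an established line of human embryonic stem cells. The 9 genes were NOTCH1, NOTCH2, NOTCH3, NOTCH4, DLL1, DLL3, DLL4, JAG1 and JAG2, out of 20037 protein-coding genes on the 22 autosomes, X and Y. They were taken by name, and a peak was assigned to a gene when it overlapped the gene body or the 5 kb either side of it (the gene window) by at least 1 bp. Cells treated with an shRNA against YTHDF1, in which a short hairpin RNA lowers the target transcript, gave YTHDF1 ChIP and input libraries. Untreated H1 cells gave YTHDF1, RNF2, H2AK119ub and input libraries. All cells were grown in mTeSR1 medium, and the labels do not say whether the shRNA line was a clone. Each of these 6 groups had 2 libraries, 12 in all. The libraries of a group had been merged by the authors into 1 peak list, so the 4 lists carry no spread between replicates. No test between groups was possible, and counts are set beside the share of all coding genes that met the same rule.

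Notch receptors are single-pass membrane proteins that are activated by Delta-like and Jagged ligands on a neighbouring cell. Cleavage by ADAM proteases and γ-secretase releases the intracellular domain, which joins RBPJ and Mastermind proteins in the nucleus and switches on genes such as those of the HES and HEY families. In embryonic stem cells many developmental regulators carry Polycomb chromatin, in which the PRC1 subunit RNF2 puts ubiquitin on histone H2A, giving the mark H2AK119ub. YTHDF1 is known as a cytoplasmic reader of N6-methyladenosine (m6A) in RNA.

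The sequence just upstream of the gene start is given for 5 genes that stand for the patterns found: NOTCH1 (YTHDF1, RNF2 and H2AK119ub at the start), NOTCH2 (no peak at the start), NOTCH4 (H2AK119ub but no RNF2 at the start), DLL4 (the RNF2 peak of highest fold at the 9 genes) and JAG2 (RNF2 and H2AK119ub, no YTHDF1). Each is the 250 bases before the start, from RefSeq on GRCh38.p14 (hg38), written 5′ to 3′ on the strand of the gene. The capitals mark CpG dinucleotides, which are dense in CpG islands. The positions are chr9:136546049-136546298 (minus strand) for NOTCH1, chr1:120069663-120069912 (minus strand) for NOTCH2, chr6:32224068-32224317 (minus strand) for NOTCH4, chr15:40929090-40929339 (plus strand) for DLL4 and chr14:105168777-105169026 (minus strand) for JAG2.
NOTCH1: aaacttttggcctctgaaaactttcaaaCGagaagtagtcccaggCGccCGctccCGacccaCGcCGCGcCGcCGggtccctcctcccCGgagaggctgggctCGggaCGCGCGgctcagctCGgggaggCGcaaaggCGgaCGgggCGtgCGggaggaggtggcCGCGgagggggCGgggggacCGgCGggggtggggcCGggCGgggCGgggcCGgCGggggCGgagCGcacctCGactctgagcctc
NOTCH2: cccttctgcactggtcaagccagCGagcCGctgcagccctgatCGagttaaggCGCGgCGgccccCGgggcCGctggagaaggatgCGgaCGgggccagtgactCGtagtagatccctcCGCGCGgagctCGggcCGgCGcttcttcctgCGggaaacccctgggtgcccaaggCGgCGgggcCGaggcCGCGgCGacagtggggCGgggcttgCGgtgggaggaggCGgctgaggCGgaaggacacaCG
NOTCH4: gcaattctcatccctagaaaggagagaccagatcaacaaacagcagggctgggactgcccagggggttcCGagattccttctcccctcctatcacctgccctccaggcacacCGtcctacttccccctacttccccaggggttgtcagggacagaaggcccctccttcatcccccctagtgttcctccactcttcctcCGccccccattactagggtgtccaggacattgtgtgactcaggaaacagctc
DLL4: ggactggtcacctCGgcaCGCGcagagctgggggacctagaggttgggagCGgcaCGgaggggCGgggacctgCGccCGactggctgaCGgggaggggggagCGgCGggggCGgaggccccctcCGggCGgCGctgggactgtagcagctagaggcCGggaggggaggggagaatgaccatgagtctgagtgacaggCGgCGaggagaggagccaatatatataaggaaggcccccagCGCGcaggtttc
JAG2: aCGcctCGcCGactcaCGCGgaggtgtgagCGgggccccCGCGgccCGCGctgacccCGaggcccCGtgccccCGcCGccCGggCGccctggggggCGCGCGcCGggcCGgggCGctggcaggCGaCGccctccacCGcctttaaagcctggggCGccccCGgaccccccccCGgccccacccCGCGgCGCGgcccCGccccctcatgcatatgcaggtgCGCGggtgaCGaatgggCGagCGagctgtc

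The RefSeq promoter table matched 7 of the 9 genes, and DLL1 and DLL3 were not among them. The 250 bases held 38 CpG in JAG2, 33 in NOTCH1, 29 in NOTCH2, 28 in NOTCH3, 20 in DLL4, 17 in JAG1 and 3 in NOTCH4, against a median of 17 in 15843 coding-gene promoters of the same length. NOTCH4 thus had the fewest, with fewer CpG in only 12.9% of coding promoters, and JAG2 the most, with fewer in 95.9%. Over all coding genes, promoters on an RNF2 peak had a median of 22 CpG and those not on one a median of 4. Promoters on an H2AK119ub island but not on RNF2, as at NOTCH4, had a median of 8. TGGGAA, the core of the RBPJ site, searched on both strands, was not found in the 7 promoters, while 20.2% of coding promoters held it. GGACT, an m6A consensus searched on both strands, occurred in NOTCH1, NOTCH4 and DLL4, and in 39.4% of coding promoters. A match or its absence in this window describes these letters and not a site.

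Most of the 9 genes carried peaks of all 3 wild-type lists. In knockdown cells none of the 9 had a YTHDF1 peak, and the background was low, at 0.963% of coding genes. In wild-type cells 7 of 9 had a YTHDF1 peak (77.8%, exact binomial 95% interval 40 to 97.2%), against 59.2% of coding genes. RNF2 peaks lay at 8 of 9 genes (88.9%, 51.8 to 99.7%), against 73.5% of coding genes, and H2AK119ub islands at 8 of 9, against 80.0%. All 3 features were present at 6 of 9 genes, namely NOTCH1, NOTCH3, NOTCH4, DLL1, DLL3 and DLL4, against 49.7% of coding genes. In the NOTCH4 window RNF2 peaks held the starts of the neighbouring genes GPSM3 and PBX2, and none lay at the NOTCH4 start. JAG1 and JAG2 had RNF2 and H2AK119ub without YTHDF1, a pattern of 21.1% of coding genes. NOTCH2 had YTHDF1 without either Polycomb feature, a pattern of 3.91%. The intervals cover counting error only and are wide, since they rest on 9 genes, and each includes the share of coding genes. Coding genes with windows as long as those of the 9 genes had close to the same shares, at 60.1% for YTHDF1, 76.4% for RNF2 and 82.4% for H2AK119ub.

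**Figure D1:**
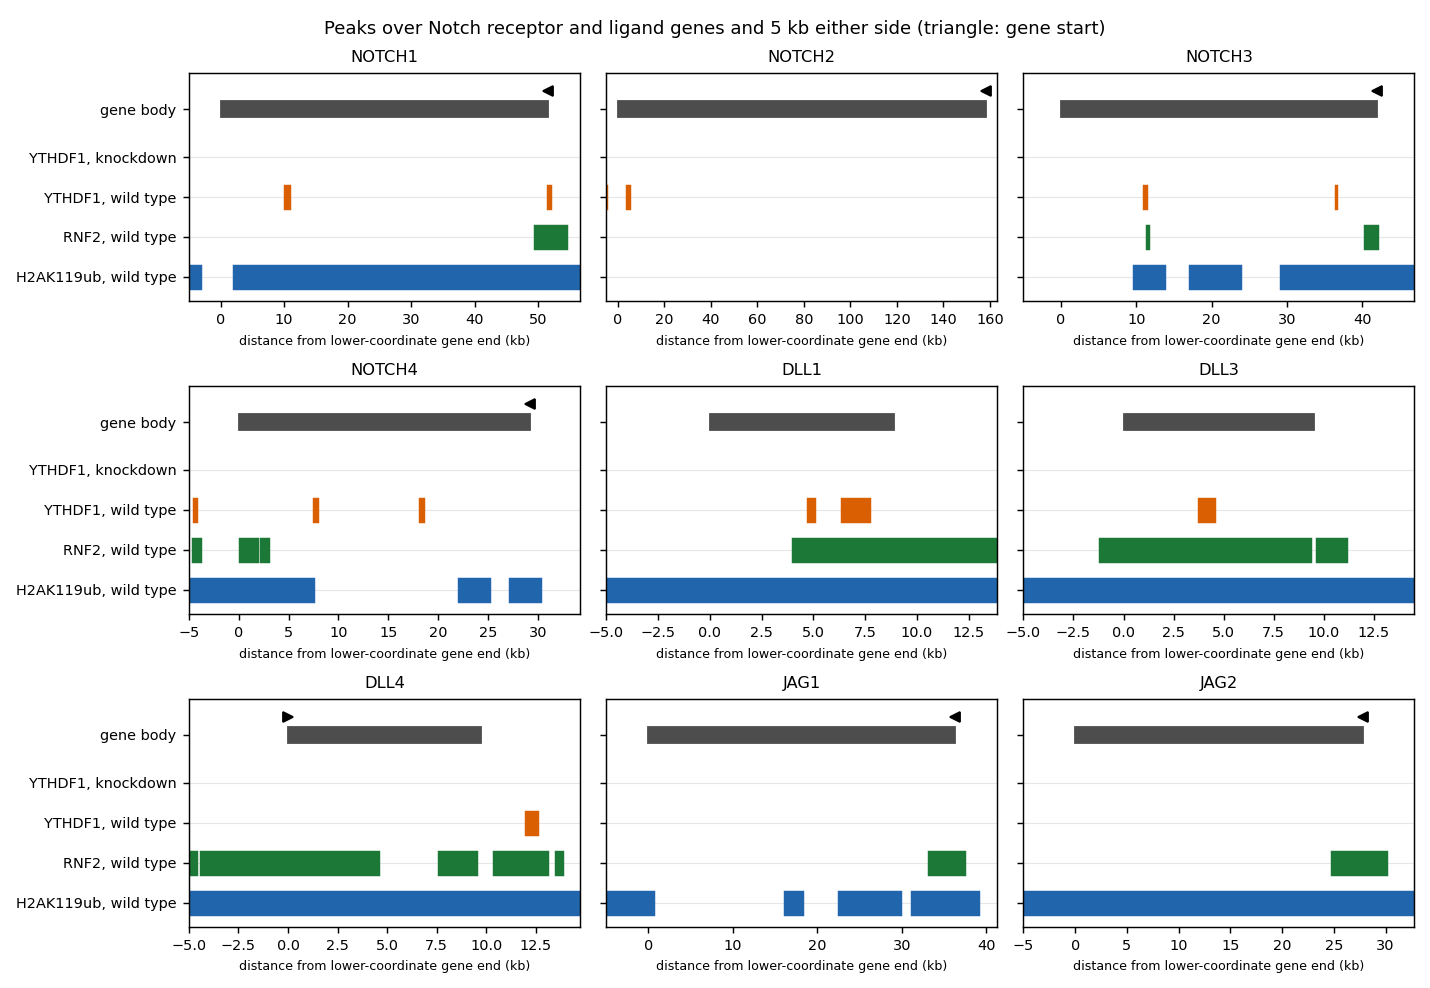
Peaks of the 4 lists over each of the 9 genes, with distance from the lower-coordinate gene end in kb on the x axis and 1 row per list. Bars are peaks, trimmed to the 5 kb flanks, the grey bar is the gene body and the triangle the gene start where the promoter table gives it. The knockdown row is empty for all 9 genes, NOTCH2 lacks RNF2 and H2AK119ub, and JAG1 and JAG2 lack YTHDF1.

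The genes differed more in how much of them was covered than in whether they had a peak. RNF2 covered 52.6% of the DLL1 window, 62.2% of the DLL3 window and 73.6% of the DLL4 window. It covered 14.3% at JAG2, 9.44% at JAG1, 9.27% at NOTCH4, 8.27% at NOTCH1, 4.37% at NOTCH3 and 0% at NOTCH2. The median of the 9 genes was 9.44%, against 3.12% over all coding genes. The Delta-like genes therefore stood above the other 6 genes without overlap, although they are also the shortest, at 8.87 to 9.73 kb, so that a peak of a given width fills more of their window. H2AK119ub covered 100% of the DLL1, DLL3, DLL4 and JAG2 windows and 91.9% at NOTCH1. It covered 55.8% at NOTCH3, 50.3% at JAG1, 48.3% at NOTCH4 and 0% at NOTCH2. The median of the 9 genes was 91.9%, against 16.0% over all coding genes. H2AK119ub cover was also high around some of these genes. With 500 kb either side of the body it was 84.7% at NOTCH1, 69.8% at JAG2 and 46.0% at DLL3. It was 26.5% at NOTCH4, 23.2% at DLL4, 20.7% at DLL1, 17.4% at NOTCH3, 6.89% at JAG1 and 2.81% at NOTCH2. How far the cover of a gene reflects its region was not tested.

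**Figure D2:**
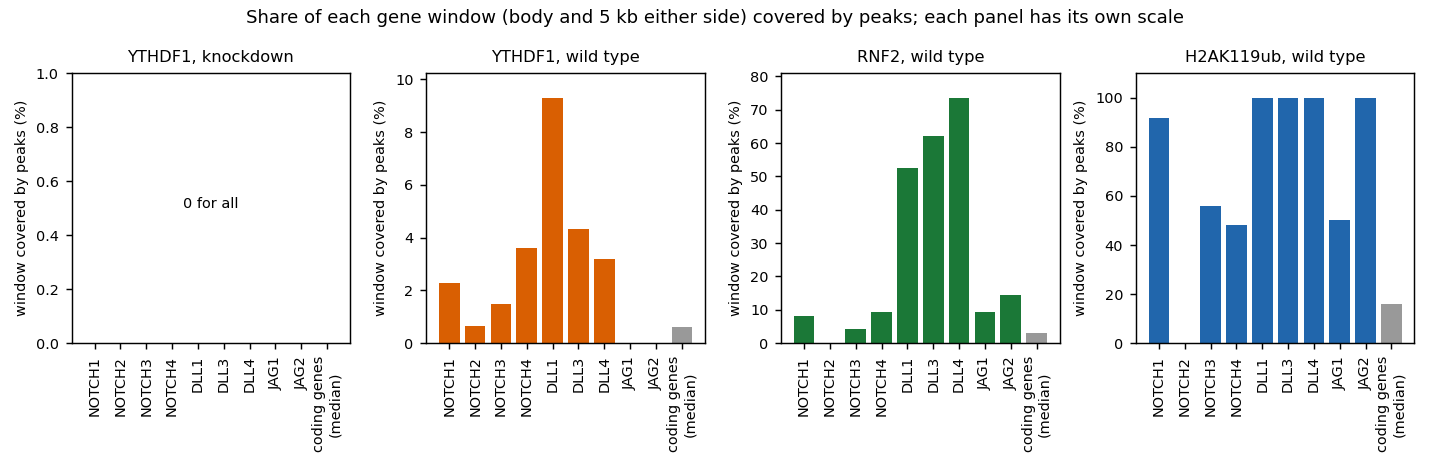
Share of each gene window covered by peaks, in percent, with 1 panel per list and its own scale. The coloured bars are the 9 genes and the grey bar is the median over 20037 coding genes. In the RNF2 panel DLL1, DLL3 and DLL4 stand at 52.6 to 73.6% and the other genes at 14.3% or lower.

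Among the receptors, NOTCH1 had the strongest Polycomb features. NOTCH1, the receptor best known from T cell development, lies on chromosome 9 from 136494433 to 136546048 (hg38, minus strand). Its RNF2 peak, at 136543859 to 136548954, was 5.10 kb wide, held the gene start and had an authors' fold enrichment of 7.48. The H2AK119ub island over it ran for 83.6 kb, from 136496401 to 136580000, with the deposited score at its cap of 1000. Among coding genes with an island, 96.9% had a narrower widest island. A second island of 7.8 kb, which also lay on SEC16A, reached into the flank beyond the 3′ end.

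NOTCH3, a receptor of vascular smooth muscle, had weaker and more scattered features. The gene lies on chromosome 19 from 15159038 to 15200995 (minus strand). An RNF2 peak of 1.86 kb and 3.15-fold, at 15199299 to 15201156, held the start. Another of 414 bp and 3.88-fold lay 30.5 kb downstream in the body. The H2AK119ub islands numbered 3, of 17.8, 7.0 and 4.2 kb, with scores of 178, 144 and 14.3. The island of 7.0 kb had no RNF2 peak on it.

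NOTCH4, a receptor of endothelial cells, had RNF2 in its window only away from its own start. The gene lies on chromosome 6 from 32194843 to 32224067 (minus strand). Its RNF2 peaks numbered 3, of 1.83 kb (4.22-fold), 955 bp (3.27-fold) and 851 bp (2.97-fold), with summits 26.8 to 33.5 kb downstream of the start. They lay at the 3′ end of NOTCH4, where the neighbouring genes GPSM3 and PBX2 also lie. Both are on the minus strand, with starts at 32195523 and 32190202. The peak of 1.83 kb held the start of GPSM3. The peak of 851 bp also overlapped GPSM3 and held the start of PBX2. An island of 14.6 kb covered this end, GPSM3 and both of these starts, and reached into PBX2. These RNF2 peaks count for NOTCH4 by overlap with its window alone and cannot be assigned to 1 gene. At the start an island of 3.2 kb, from 32222001 to 32225200, had a score of 20.4 and no RNF2 peak. That score was below the median of the list, 24.2, and 44.4% of islands scored lower. Of the 7 genes with a known start, 5 had an RNF2 peak within 2 kb of it, against 66.5% of coding genes, and 6 had an island, against 74.2%.

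NOTCH2, a receptor of B cells and bile duct development, was the gene without Polycomb features. It lies on chromosome 1 from 119911553 to 120069662 (minus strand) and is the longest of the 9, at 158 kb. No peak of any list was found from 119916609 to 120133241, a stretch of 217 kb that holds the gene start. The nearest RNF2 peak, of 4.28-fold, began 63.6 kb upstream of the start. Of all coding genes 17.2% had neither feature in their window, and of the 10% with the longest windows 5.34%. Its promoter, printed above, is rich in CpG. Of 2891 coding promoters with at least 29 CpG, 94.4% lay on an RNF2 peak and 95.4% on an island.

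The 5′ part of NOTCH2 has partial copies on chromosome 1, the genes NOTCH2NLA, NOTCH2NLB, NOTCH2NLC and NOTCH2NLR, which encode short NOTCH2-derived proteins. None of these 4 genes had a peak of any list, while 13.3% of coding genes lacked all 3 wild-type features. In a gapped global alignment, the 250 bases upstream of NOTCH2 were identical to NOTCH2NLA over 88.7% of columns, to NOTCH2NLR over 77.3% and to NOTCH2NLC over 75.7%. The same alignment gave 44.5% for NOTCH2NLB and 42.4 to 52.3% for NOTCH1, NOTCH3 and NOTCH4. The 250 bases of NOTCH2NLB held 0 CpG, against 26 to 30 in the other copies. Its window was also longer, at 122 kb against 80.9 to 91.2 kb. Whether its annotated start matches that of the other copies was not tested, so the low identity does not show that its promoter has diverged. How reads that fit several copies were handled is not given in the sources used here, and its part in the lack of peaks was not tested.

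The Delta-like ligands had the strongest RNF2 peaks of the family. DLL1, an activating ligand, lies on chromosome 6 from 170282206 to 170291078. Its RNF2 peak of 13.5 kb, at 170286158 to 170299665, had a fold enrichment of 17.4 and ran past the higher-coordinate end into FAM120B, which overlaps DLL1. DLL3, which acts mainly inside the cell as an inhibitor of Notch signalling and is known from somite formation, lies on chromosome 19 from 39498947 to 39508469. Its main RNF2 peak of 10.6 kb, at 39497713 to 39508302, had a fold enrichment of 15.3 and covered nearly the whole gene. DLL4, a ligand of endothelial tip cells, lies on chromosome 15 from 40929340 to 40939073 (plus strand). Its RNF2 peaks numbered 5, the strongest at 40924907 to 40933916, over the start, with 9.01 kb and 21.2-fold. By −log10 p the DLL1 peak stood slightly higher, at 197, than this DLL4 peak, at 196.

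These 3 genes ranked above most coding genes with an RNF2 peak. By strongest fold, 95.5% of such genes lay below DLL4, 94.5% below DLL1 and 93.5% below DLL3. An RNF2 peak of 10 kb or wider lay at 2 of the 9 genes, DLL1 and DLL3, against 4.14% of coding genes, and DLL4 fell just under that width. Their islands, of 35.0 kb at DLL1, 26.4 kb at DLL3 and 59.4 kb at DLL4, covered each gene body whole and reached neighbouring genes. The islands also lay on TIMM50 and SELENOV beside DLL3, and on VPS18 and CHAC1 beside DLL4.

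**Figure D3:**
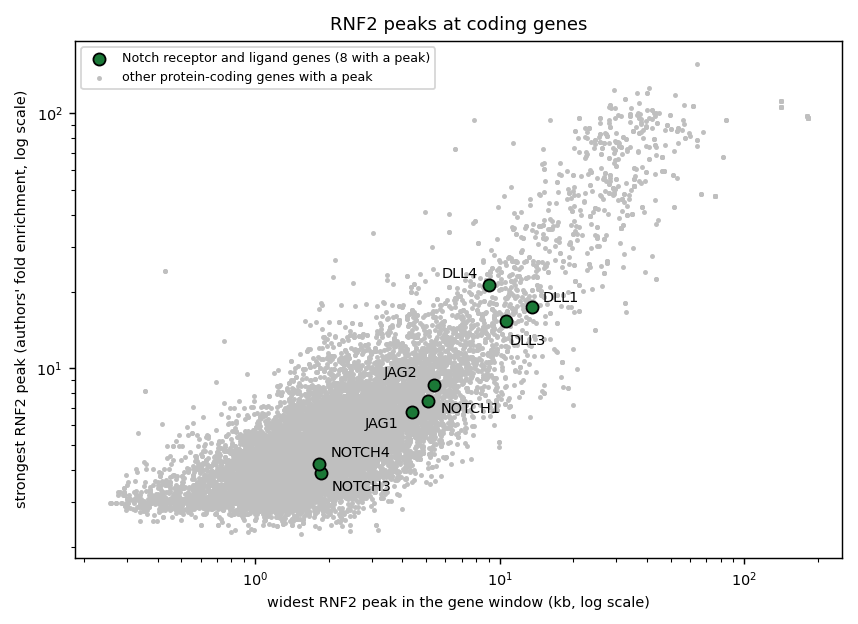
Strongest authors' fold enrichment (y axis, log scale) against the widest RNF2 peak in kb (x axis, log scale) in each coding-gene window with a peak. Green points are the 8 Notch genes with a peak and grey points the other coding genes. DLL1, DLL3 and DLL4 lie at 9.01 to 13.5 kb and 15.3- to 21.2-fold, and NOTCH3 and NOTCH4 at under 2 kb and 3.88- and 4.22-fold.

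The Jagged ligands had a single RNF2 peak each, over the start. JAG1, the ligand altered in Alagille syndrome, lies on chromosome 20 from 10637684 to 10673999 (minus strand). Its RNF2 peak, at 10670785 to 10675158, was 4.37 kb wide and 6.77-fold. An island of 8.0 kb at the score cap covered the start, and 3 further islands of 2.2 to 9.8 kb, without RNF2, had scores of 9.53 to 39.4. JAG2, a ligand known from limb and thymus development in mice, lies on chromosome 14 from 105140995 to 105168776 (minus strand). Its RNF2 peak, at 105165711 to 105171119, was 5.41 kb wide and 8.64-fold, in a single island of 51.4 kb that covered the gene and NUDT14.

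Over the 9 genes, all 16 RNF2 peaks lay on an H2AK119ub island, against 89.3% of RNF2 peaks in coding-gene windows, and 10 of the 16 islands lay on RNF2, against 46.1% of islands in coding-gene windows. Islands at the score cap lay at 6 of 9 genes, against 26.5% of coding genes. These were NOTCH1, DLL1, DLL3, DLL4, JAG1 and JAG2, and the cap leaves their order unknown. The strongest RNF2 peak had a median of 8.06-fold over the 8 genes with one, against 5.08-fold over 14725 coding genes with one.

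YTHDF1 peaks in wild-type cells had a median of 2.94-fold and 505.5 bp at these genes, against 2.89-fold and 408 bp over the whole list. They numbered 14, with 3 each at NOTCH2 and NOTCH4, 2 each at NOTCH1, NOTCH3 and DLL1, and 1 each at DLL3 and DLL4. Their widths ran from 265 to 1367 bp and their fold enrichments from 2.58 to 4.07, and 10 of the 14 were under 3-fold. The strongest was at NOTCH2, at 119915249 to 119915761, with 4.07-fold and a −log10 q of 5.21. It lay inside the gene 3.89 kb from the 3′ end, with a further peak of 2.94-fold beside it, and neither was on RNF2 or H2AK119ub. In the whole list 99.3% of peaks had a lower −log10 p.

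The other 13 YTHDF1 peaks had a −log10 q of 1.52 to 2.49, and the minimum of the list was 1.502. At DLL3 a peak of 844 bp and 3.23-fold, at 39502671 to 39503514, had a −log10 q of 2.49, and 82.5% of the list had a lower −log10 p. At DLL1 peaks of 1367 bp (3.09-fold) and 388 bp (2.95-fold) lay in the gene body, with −log10 q of 2.18 and 1.87. At NOTCH1 the peak over the start was 590 bp wide, 3.09-fold and had a −log10 q of 2.18, and 69.1% of the list had a lower −log10 p. Identical values recur: the pair of fold and p of the NOTCH1 start peak, which the wider DLL1 peak shared, occurred 2681 times in the list, so these peaks cannot be ranked against each other. At NOTCH3 both peaks were 2.81-fold, with a −log10 q of 1.58. At DLL4 the peak of 2.93-fold lay beyond the 3′ end, 12.4 kb from the start.

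The remaining YTHDF1 peaks lay in receptor windows away from the starts of the receptor genes. At NOTCH1 a peak of 825 bp and 2.95-fold lay 41.0 kb downstream of the start, on H2AK119ub without RNF2. At NOTCH4 the peak of 2.92-fold lay beyond the 3′ end, just upstream of the PBX2 start and on the RNF2 peak that held it. The peak of 2.80-fold lay at the edge of an island and that of 2.95-fold on neither feature. The third peak at NOTCH2, of 2.58-fold, lay across the outer edge of the 5 kb flank and was the weakest of the 14. The nearest wild-type YTHDF1 peak was 15.8 kb from the body of JAG2 and 19.2 kb from that of JAG1, well beyond the 5 kb flanks. YTHDF1 covered 9.30% of the DLL1 window, 4.32% at DLL3, 3.59% at NOTCH4 and 3.20% at DLL4. It covered 2.30% at NOTCH1, 1.47% at NOTCH3, 0.667% at NOTCH2 and 0% at JAG1 and JAG2. The median of the 9 genes was 2.30%, against 0.605% over all coding genes, and the median number per 100 kb of window was 3.85, against 1.44.

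NOTCH1 was the only gene of the 7 with a known start that had a YTHDF1 peak within 2 kb of it in wild-type cells, against 22.6% of coding genes. In knockdown cells none of the 7 had one, against 0.429% of coding genes. This peak, at 136545900 to 136546489, covered all 250 promoter bases printed above, with its summit 203 bp upstream of the start. It lay inside the RNF2 peak, whose summit was 0.644 kb away. The peak also covered MIR4674, whose mature miRNA is printed 5′ to 3′ from RefSeq with the seed (bases 2 to 8) in capitals, since its hairpin lies within these promoter bases.
hsa-miR-4674: cUGGGCUCgggacgcgcggcu
RNA was not measured in these libraries. The genes of 4 further miRNAs, MIR4673 in NOTCH1, MIR6795 in NOTCH3, MIR6870 in JAG1 and MIR6765 in JAG2, lay in the windows without YTHDF1 or RNF2 on them.

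At these genes 7 of the 14 YTHDF1 peaks (50%, exact interval 23 to 77%) overlapped RNF2, against 19.2% of 25342 YTHDF1 peaks in coding-gene windows. On H2AK119ub lay 10 of 14 (71.4%, 41.9 to 91.6%), against 38.5%, and on neither 4 of 14, against 60.8%. These intervals count each peak as independent, but the 14 peaks came from 7 genes, and both DLL1 peaks lay in the same RNF2 peak. Peaks of 1 gene are not replicates, so the intervals may be too narrow and no test is drawn from them. The 7 on RNF2 were all on an island as well. They were 2 peaks at DLL1 and 1 each at NOTCH1, NOTCH3, NOTCH4, DLL3 and DLL4, the NOTCH4 peak being the one beside the PBX2 start. Those at DLL1 lay 0.275 and 2.37 kb from the RNF2 summit, the one at DLL3 4.03 kb away, and the others 0.102 to 0.644 kb. With the Polycomb coverage given above, the DLL genes offered more sequence on which a peak could fall, and the part of this in the count was not tested.

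**Figure D4:**
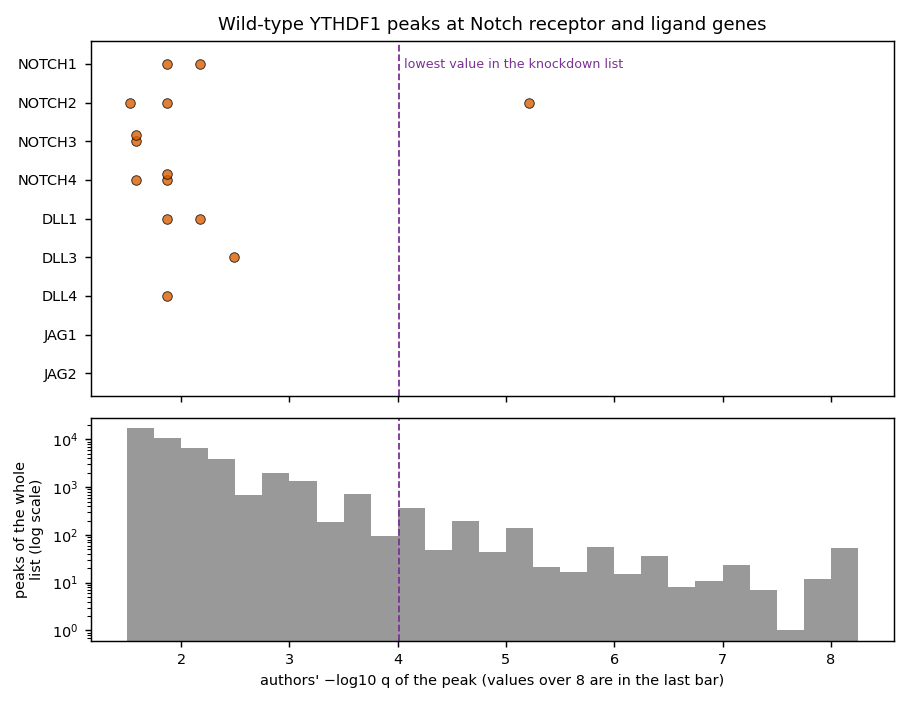
Authors' −log10 q of each wild-type YTHDF1 peak at the 9 genes (upper panel, 1 point per peak, equal values stacked) and number of peaks of the whole list per bin of 0.25 (lower panel, log scale). The dashed line is the lowest −log10 q of the knockdown list, 4.01. A single peak, at NOTCH2, lies above it, and JAG1 and JAG2 have none.

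In YTHDF1 knockdown cells no peak fell in the 9 windows, in a list of 226 peaks, against 14 of 44498 in wild-type cells. The nearest knockdown peak lay 22.4 kb from NOTCH3, 313 kb from JAG2 and 1642 kb or more from the other genes. The lowest −log10 q was 4.01 in the knockdown list and 1.502 in the wild-type list. The list totals thus rest on unlike minimum values. At a −log10 q of at least 4, 1062 peaks were left in the wild-type list, and at the 9 genes only the NOTCH2 peak. This put YTHDF1 at 1 of 9 genes, against 4.60% of coding genes. For the other 6 genes with YTHDF1 the lists therefore cannot show whether the signal differed between knockdown and wild-type cells. At NOTCH2 the contrast rests on 1 peak and does not show it either. Depth was unknown for both lists, and the merged lists allowed no test.

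The other genes of the pathway were counted by role in 7 lists with 59 genes. Of these, none had a YTHDF1 peak in knockdown cells, where 0.963% of coding genes had one, so that few or none would be looked for among 59. In wild-type cells 41 had YTHDF1 (69.5%), 50 had RNF2 (84.7%) and 52 had H2AK119ub (88.1%), beside 59.2, 73.5 and 80.0% of coding genes. The median RNF2 coverage of their windows was 5.39%, and that of the receptors and ligands 9.44%. For each role below, shares are given for coding genes in the decile of window length that holds the median window of that role. Unless named, they stand in the order YTHDF1, RNF2 and H2AK119ub.

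Of the 9 receptor-processing genes, 7 carried YTHDF1, 8 carried RNF2 and 9 carried H2AK119ub, beside 58.3, 76.8 and 83.1% of such coding genes. Their strongest YTHDF1 peaks were 3.92-fold at APH1B, a γ-secretase subunit, 3.72-fold at ADAM17 and 3.26-fold at ADAM10, both sheddases that cut Notch. The widest RNF2 peak there, at APH1B, was 2.24 kb, beside a median widest peak of 2.07 kb over coding genes with an RNF2 peak. The glycosyltransferases, which modify the EGF repeats of Notch, carried YTHDF1 in 4 of 6 windows, RNF2 in 5 and H2AK119ub in 6. The shares of coding genes were 54.0, 74.1 and 81.1%. EOGT, LFNG and MFNG had YTHDF1 peaks of 3.66-, 3.65- and 3.51-fold, and LFNG, of the Fringe family, had the widest RNF2 peak of its list, at 8.66 kb.

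Of the 8 nuclear effectors, YTHDF1 was found at 7, RNF2 also at 7 and H2AK119ub at 6. Their median window of 186 kb fell in the longest decile, whose shares were 92.4, 90.8 and 91.6%. The shares of the effectors, 87.5, 87.5 and 75%, lay below these. The strongest YTHDF1 peaks were 3.79-fold at MAML3 and 3.51-fold at MAML1, both Mastermind coactivators, and 3.47-fold at RBPJ, the DNA-binding partner of the intracellular domain. MAML3 also had the widest RNF2 peak of the list, at 5.43 kb. Genes of ligand endocytosis and ubiquitin ligases numbered 16, and 14 of them had YTHDF1, 15 RNF2 and 16 H2AK119ub. The shares of coding genes were 65.3, 81.1 and 84.9%. EPN2, an epsin, had the strongest YTHDF1 peak of all 59 genes by −log10 q (4.35-fold, −log10 q of 6.44), and EPN1 and FBXW7, FBXW7 being a ligase subunit that marks the intracellular domain for degradation, had peaks of 3.27- and 3.29-fold. DTX3, a Deltex family member, lay at an RNF2 peak of 29.1 kb and 50.7-fold. The non-canonical ligands had YTHDF1 at 4 of 6 and RNF2 and H2AK119ub at 5 each. Their median window of 173 kb also fell in the longest decile. Their shares, 66.7, 83.3 and 83.3%, lay below the 92.4, 90.8 and 91.6% of that decile. YTHDF1 stood at 3.36-fold at CNTN1, 3.09-fold at CNTN6 and 2.95-fold at DNER, which also had the widest RNF2 peak of that list, at 4.28 kb.

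Polycomb features lay at every target gene. All 10 had RNF2 and H2AK119ub, beside 73.5 and 80.0% of all coding genes and 66.8 and 76.4% in the decile. The median share of their windows covered by RNF2 was 67.9%, against 3.12% over all coding genes. Their windows were short, with a median of 13.2 kb, so that a peak of a given width fills more of them. YTHDF1 lay at 5 of 10, beside 59.2% of all coding genes and 43.0% in the decile. Its strongest peaks were 3.80-fold at HES6, 3.79-fold at HES4 and 3.09-fold at HEYL. HES2 had the widest RNF2 peak of this list, at 12.8 kb.

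**Figure D5:**
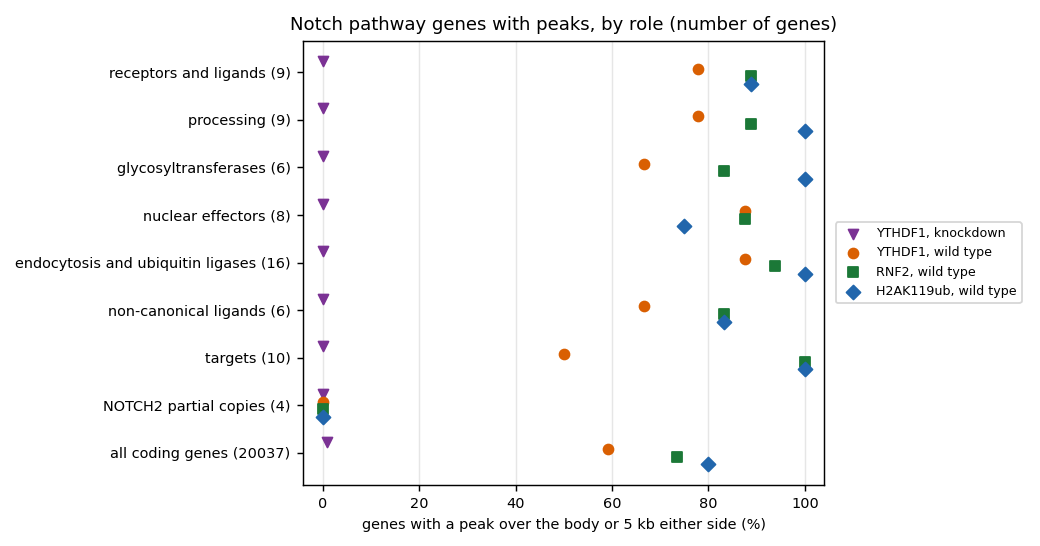
Share of genes, in percent, with a peak of each list over the body or 5 kb either side, by role in the pathway, with the number of genes in brackets. The receptors and ligands are at the top and all coding genes at the bottom. The knockdown list is at 0 for all Notch groups and at 0.963% for all coding genes. The target genes are at 100% for RNF2 and H2AK119ub, and the NOTCH2 partial copies are at 0 for every list.

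By the share of the window covered in the 3 wild-type lists, the coding genes most like NOTCH2, the gene with the strongest YTHDF1 peak, were NBPF6, PIK3C2G and CAPN13. Each had no RNF2 or H2AK119ub and 0.661 to 0.672% of its window under YTHDF1, against 0.667% at NOTCH2. The likeness was the distance over these 3 percentages, and 3448 other coding genes also had neither Polycomb feature.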

How the data were processed

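ChIP-seq peak lists of H1 cells were analysed, 1 for each of 4 groups, from 8 ChIP libraries with 4 input libraries beside them. Replicates were merged before deposition, per the series' design text. The peak callers MACS2 2.1.0 and SICER 1.1, the aligner Bowtie2 2.2.5 and the read tools Trimmomatic 0.35, Picard and SAMtools 1.3.1 are named with hg38, per the submitters' processing notes. Their settings, and the caller of each list, are not given in the sources used here. In the YTHDF1 and RNF2 lists the authors deposited a fold enrichment, a −log10 p and a −log10 q for each peak, and a score of 10 times the −log10 p, capped at 1000. The H2AK119ub islands carry the authors' score, whose scale is not stated and which stops at 1000, and run in steps of 200 bp. These values were used within a list, except for a common −log10 q minimum of 4 on both YTHDF1 lists. Depth per library is unknown, since the lists hold no read totals.

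Genes, gene starts and sequences came from RefSeq tables of GRCh38.p14, the assembly of hg38, and coordinates are 1-based. DLL1 and DLL3 have no start in the promoter table, so they were left out where starts were counted, as were all other coding genes without one, which left 15843. An alternative used both gene ends for these 2 genes. Shares carry exact (Clopper-Pearson) 95% binomial intervals. All 9 genes are named. Of each pathway list the rule named the 3 genes with the strongest YTHDF1 peak by −log10 p and the gene with the widest RNF2 peak. Neighbours are named where they lie in a window or under a peak. The genes and lists were chosen with earlier results of these data known. Promoters were aligned globally (match 1, mismatch -1, gap opening -3, gap extension -0.5). Overlap code was tested on simulated data. Python 3.11.15, pandas 2.3.3, numpy 2.4.6, SciPy 1.17.1 and Biopython 1.88 were used. Alternatives changed the window, the overlap rule, the score or q minimum, the merging of peaks and the background genes.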

Additional observations from a re-analysis of the deposited data

How the results depend on the processing

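No paired analysis was possible because the 2 replicates of each group had been merged into 1 list, and for the same reason no replicate could be left out. Counts of the 9 genes with an RNF2 peak (8) or an H2AK119ub island (8) were 7 or 8 under every window, overlap, score and merging alternative run. Over coding genes the shares under these alternatives were 58.4 to 85.1% for RNF2 and 69.2 to 87.9% for H2AK119ub. For knockdown YTHDF1 (0) the alternatives listed at the outset could hardly raise the count. With 50 kb either side of the gene body, an alternative chosen after seeing the data, it was 1 (NOTCH3), against 2.42% of coding genes, and the wild-type YTHDF1 count was 9, against 86.3%. The count with a wild-type YTHDF1 peak was 5 to 7 of 9 under 6 others, against 43.3 to 59.2% of coding genes. It was 2 within 2 kb of the gene start (NOTCH1, and DLL1 by its ends) and 1 at a −log10 q of at least 4 (NOTCH2). In the better-scoring 50% of each list, where 4457 peaks tied at the limit were ordered by width, 7 YTHDF1 peaks were left, 4 on RNF2 and 5 on H2AK119ub, against 7 and 10 of 14. The share of coding genes with a peak was 61.8% for wild-type YTHDF1, 75.6% for RNF2 and 82.1% for H2AK119ub on autosomes alone. In the deciles of window length of the 9 genes it was 60.1, 76.4 and 82.4%. Unknown depth and merged replicates limit the lists: a gene without a peak is not shown to lack signal.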
